A study of Mus musculus with 24 samples.

Results

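The genes described here encode enzyme families that write and erase acetyl and methyl marks on histones, with some of their partner subunits. Their RNA was measured in the cerebellum of young and old mice. They were chosen by symbol: the histone deacetylase (Hdac), sirtuin (Sirt), lysine demethylase (Kdm), lysine methyltransferase (Kmt, Setd, Setdb, Nsd, Ezh, Ehmt, Suv39h) and lysine acetyltransferase (Kat) families, together with Ep300, Crebbp, Dot1l and the Polycomb subunits Eed and Suz12. This rule found 76 genes among the 37991 gene identifiers counted, 40 writers and 36 erasers, and all 76 had enough counts to be tested. A member was counted as a writer or an eraser by its family, also where it acts mainly on other substrates, such as Setd3 and Hdac10. RNA came from whole cerebellum of male C57BL/6J mice at 7 and at 79 weeks of age. Each age had 2 libraries, and no treatment or altered allele is named for any of them. Nothing in the labels ties a library to a mouse of its own; p-values therefore measure the spread between libraries, which may be technical.

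Acetylation of histone lysines loosens their contact with DNA and creates binding sites for bromodomain proteins; acetyltransferases add the group and deacetylases remove it. Methylation leaves the charge of the lysine unchanged, and its meaning depends on the residue: H3K4 methylation marks promoters and enhancers, H3K36 methylation transcribed gene bodies, and H3K9 and H3K27 methylation repressed chromatin. In neurons these enzymes take part in activity-dependent transcription, and loss of one copy of several of them causes developmental brain disorders.

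The libraries held between 16367656 and 22826993 counts assigned to genes, of which the 76 genes took 0.79% to 0.814%. Expression is given as CPM (counts scaled to a common library total) after TMM scaling, which corrects for differences in library composition; these values are not divided by transcript length, so levels are compared between ages and never between genes. Changes are log2 ratios of 79 over 7 weeks from edgeR's quasi-likelihood test, with a standard error (SE) and a p-value adjusted by Benjamini-Hochberg over 15292 genes, and a gene is called at an adjusted p of 0.05 or less. Markers of every cerebellar cell type on the lists were detected, with none at 0 in all libraries. At this depth such detection is too weak a criterion to test the tissue label. Several marker lists differed between the ages: of 15 granule neuron markers 9 were lower and 1 higher at 79 weeks, of 13 Purkinje cell markers 5 were lower, of 12 myelinating oligodendrocyte markers 5 were lower, and of 13 microglial markers 9 were higher. In whole tissue, fewer cells of a type and less RNA per cell cannot be told apart. One library stood apart: choroid plexus markers summed to 5351 CPM in 79-week replicate 1 against 17.3 to 40.8 CPM in the other libraries. The sum of the meningeal markers was also highest there, at 344 CPM against 153 to 191 CPM. Igf2 alone stood at 229 CPM there, against 72.9 to 87.9 CPM in the other libraries. Dcn, Lum, Slc6a13 and Ogn were highest there too, and Col1a1, Col1a2 and Col3a1 were not.

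The share of the 76 genes that was called was near that of all genes tested, and the estimated changes of the called members were under 1.5-fold. Of the 76, 5 were called (6.58%), against 8.84% of all genes tested. Higher at 79 weeks were the deacetylase genes Hdac7 and Hdac11, 2 of 76 against 4.17% of all genes, and lower were the methyltransferase gene Setd7 and the demethylase genes Kdm7a and Kdm5c, 3 of 76 against 4.68% of all genes. The members' changes lay on both sides of zero, with 38 above and 38 below, and their median log2 change was -0.002 beside 0.010 over all genes tested. DESeq2, the other count model run, called 6 of the 76, against 8.61% of the genes it tested.

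The size of the changes was bounded closely. The 95% interval of the log2 change lay within 1.5-fold in either direction (a log2 of 0.585) for 71 of the 76 genes (93.4%), against 62.2% of all genes; the members' median level was 68.0 CPM and that of all genes tested 24.1 CPM, so counting error was smaller for the members. The 5 genes whose interval passed 1.5-fold were Hdac7, Ezh2, Kdm8, Kdm4d and Setdb2, the last 4 of them with at most 17.4 CPM in any library. An absolute log2 change under 0.2 was found for 62 members (81.6%), and the median absolute change was 0.090, beside 0.161 over all genes. The 7-week and 79-week values did not overlap for 44 members (57.9%), against 57.7% of all genes, and the unadjusted p was under 0.05 for 21 (27.6%), against 26.7%. By these last measures the members were close to the background.

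**Figure D1:**
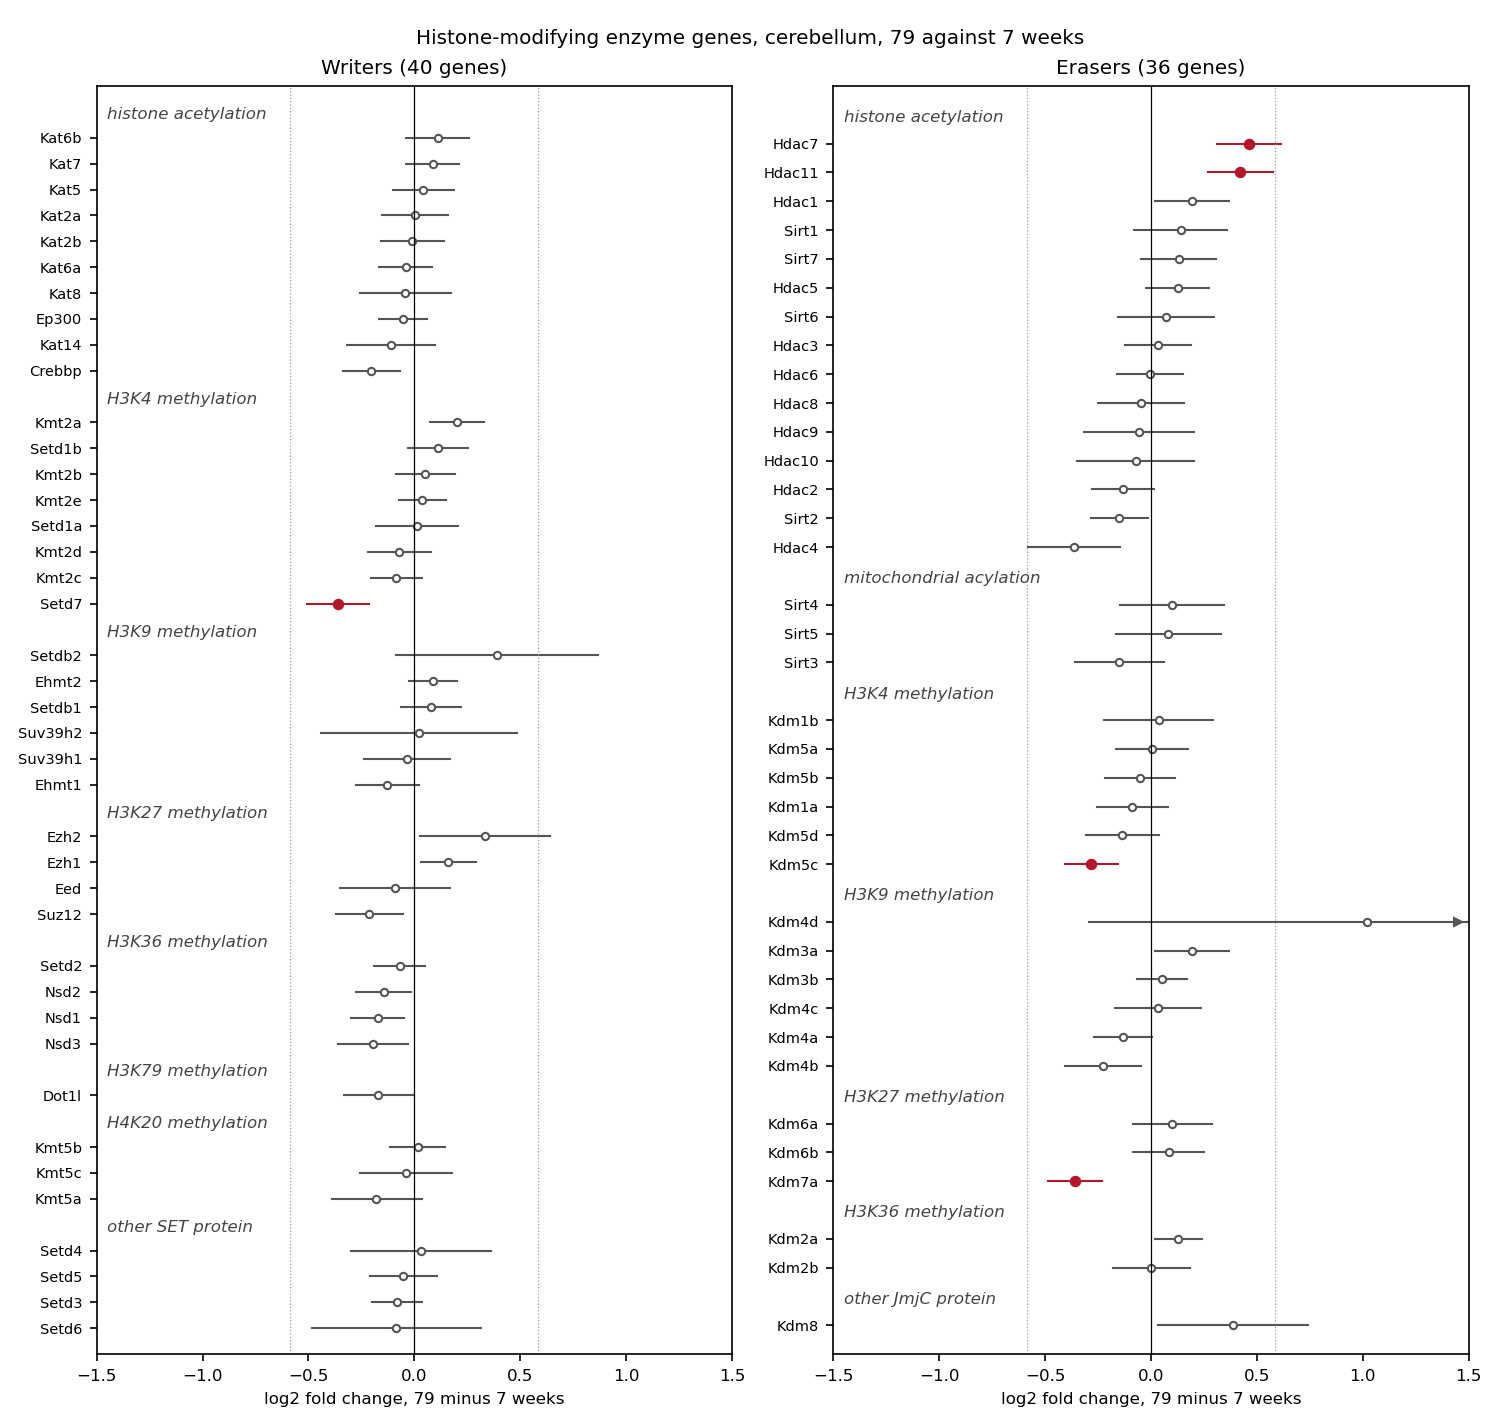
Log2 change (79 over 7 weeks) of each of the 76 genes, with the 95% interval from the edgeR fit as a bar, arranged by writers and erasers and by mark; the dotted lines mark 1.5-fold in either direction and filled red points the called genes. Nearly all intervals lie between the dotted lines, and the widest, cut off at the axis end, belongs to Kdm4d, which had 3 to 21 counts per library.

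Writers and erasers were then set side by side. Of the 40 writers 1 was called (2.5%), lower at 79 weeks, and of the 36 erasers 4 were called (11.1%), 2 higher and 2 lower, against 8.84% of all genes (4.17% higher and 4.68% lower). The median log2 change was -0.040 for writers, or 0.013 under scaling by library size alone, and 0.033 for erasers, or 0.087 under that scaling, which moved the median of all genes from 0.010 to 0.064. Measured in each library against the 7-week mean on the scale log2(CPM + 0.5), the writers' median was 0.017 and -0.017 at 7 weeks and -0.024 and -0.048 at 79 weeks. The erasers' median was 0.010 and -0.010 at 7 weeks and 0.042 and 0.011 at 79 weeks. The eraser median minus the writer median was -0.007 and 0.007 at 7 weeks and 0.066 and 0.059 at 79 weeks, so the groups did not overlap; 2 libraries against 2 cannot give an exact permutation p under 0.333. The offset of 0.073 between the medians of the fitted changes is a description of the members, whose own changes ran from -0.365 to 1.019. It was 0.054 in a narrower set of 32 writers and 29 erasers. In that set 1 writer (3.12%) and 3 erasers (10.3%) were called, beside 8.84% of all genes. The called writer was lower, and of the called erasers 1 was higher and 2 were lower. This set kept Setd7 and Sirt2 and left out Eed, Suz12 and Hdac11, among others. Over all members, the offset was 0.032 without 7-week replicate 2, and the erasers' median was then 0.001, or -0.004 with DESeq2.

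By mark, the medians stayed near zero. Each gene was counted under a single mark, and the calls stand beside 8.84% of all genes. For histone acetylation the 10 writers had a median log2 change of -0.025 with none called, and the 15 erasers one of 0.033 with 2 higher. For H3K4 methylation the 8 writers had a median of 0.025 with 1 lower and the 6 erasers one of -0.070 with 1 lower. For H3K27 methylation the 4 writers had a median of 0.035 with none called and the 3 erasers one of 0.084 with 1 lower. For H3K9 methylation neither the 6 writers (median 0.049) nor the 6 erasers (median 0.042) included a called gene. The called Kdm7a, which acts on H3K9me2 as well, was counted under H3K27. The H3K36 writers had the lowest median of these groups, -0.159, with all 4 values below zero and none called. The 2 erasers counted under H3K36 had a median of 0.065.

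**Figure D2:**
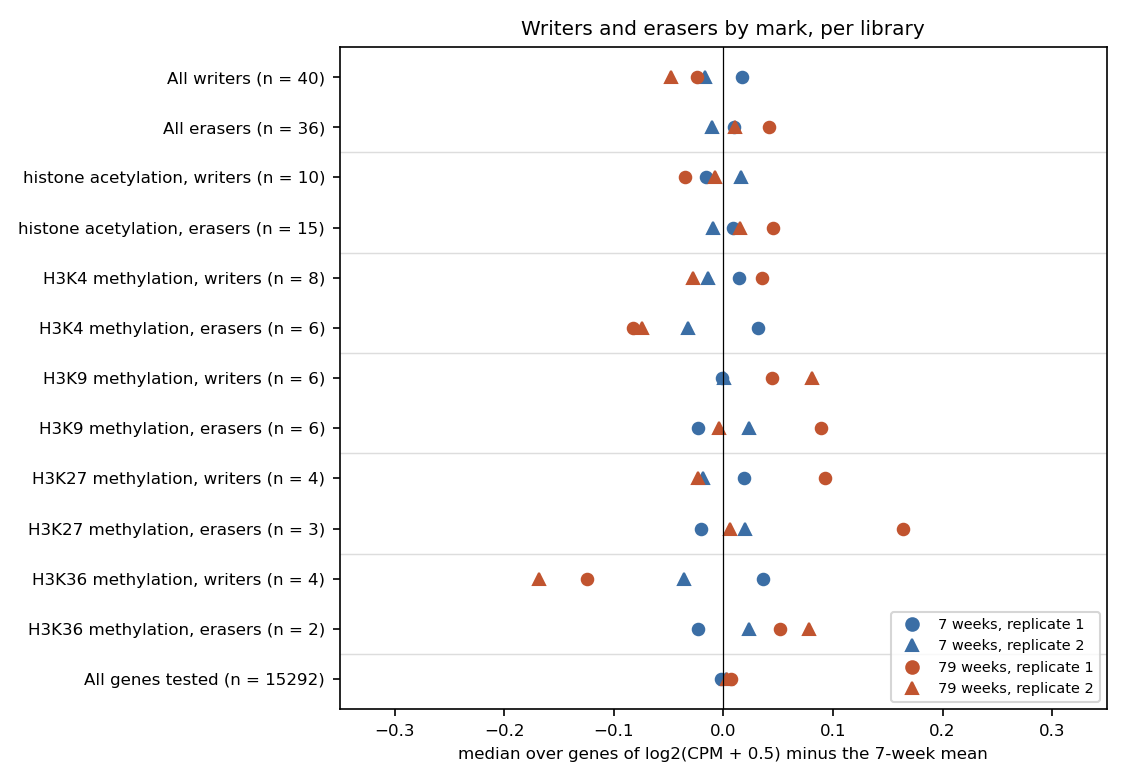
Median over the genes of each group of log2(CPM + 0.5) minus its 7-week mean, with 1 symbol per library (blue 7 weeks, red 79 weeks; circles replicate 1, triangles replicate 2) for writers and erasers, by mark, and for all genes tested. Both 79-week medians lie below both 7-week medians for the 4 H3K36 writers, and the shift of all 40 writers is small enough that scaling by library size alone turns their median change from -0.040 to 0.013.

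Among the deacetylases, Hdac7 and Hdac11 rose. Hdac7 is a class IIa deacetylase that shuttles between nucleus and cytoplasm and acts with corepressors on MEF2 targets. Its level was 50.2 and 52.0 CPM at 7 weeks, against 70.8 and 70.1 CPM at 79 weeks. Both old libraries lay well above both young ones. The mean went from 51.1 ± 1.28 to 70.4 ± 0.503 CPM (SD, n = 2 each), a 1.38-fold increase with a log2 change of 0.46 (SE 0.065, 95% interval 0.31 to 0.62) and an adjusted p of 0.0104 (edgeR). Hdac7 is known for its part in blood vessels. The 10 endothelial and mural markers held 0 called genes. They summed to 271 and 277 CPM at 7 weeks and 268 and 298 CPM at 79 weeks. The endothelial genes among them had log2 changes from 0.008 (Slco1a4) to 0.324 (Cldn5), and the mural genes from -0.574 (Acta2) to 0.030 (Pdgfrb). The part of these markers in the result was not tested. The microglial markers, of which 9 of 13 were higher, summed to 152 and 167 CPM at 7 weeks and 266 and 328 CPM at 79 weeks, and their part in the result was not tested.

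Hdac11 is the only class IV deacetylase, known for removing long fatty acyl groups as well as acetyl groups. It stood at 136 and 148 CPM at 7 weeks and at 182 and 198 CPM at 79 weeks, again without overlap. The log2 change was 0.42 (SE 0.066, 95% interval 0.267 to 0.575), a 1.34-fold increase with an adjusted p of 0.0137. Hdac11 is known to be expressed in neurons and oligodendrocytes. The 12 myelin markers summed to 6424 and 6048 CPM at 7 weeks and 3869 and 5450 CPM at 79 weeks, with 5 lower and none higher. Of the 15 granule neuron markers 9 were lower and 1 higher, and of the 13 Purkinje cell markers 5 were lower and none higher. Of the 9 inhibitory interneuron markers 1 was higher and none lower. The part of all these markers in the result was not tested.

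Neither call held with every library left out in turn. In edgeR without 7-week replicate 1 the adjusted p was 0.123 for Hdac7 and 0.146 for Hdac11, and without 7-week replicate 2 it was 0.0685 and 0.0632, with the direction kept; in these fits edgeR called 0 and 175 genes in all. Without 79-week replicate 1, the library with choroid plexus RNA, the adjusted p was 0.00178 for Hdac7 and 0.000189 for Hdac11 in edgeR, and 0.0956 and 0.00268 in DESeq2. DESeq2 did not call Hdac7 with any 1 library left out (adjusted p between 0.0876 and 0.282), and it did not call Hdac11 without 7-week replicate 1 (0.143) or without 79-week replicate 2 (0.0767).

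The other 9 Hdac genes were not called, and their log2 changes had both signs. Hdac4, the class IIa deacetylase best known from neurons, had the lowest log2 change of all members. Its level was 36.8 and 36.2 CPM at 7 weeks and 26.4 and 30.2 CPM at 79 weeks, with no overlap, and its log2 change of -0.36 (SE 0.093) had an adjusted p of 0.0532, just past the threshold. It was below 0.05 in some other analyses, among them edgeR's robust fit (adjusted p = 0.032). In others Hdac4 was not called, among them DESeq2, upper-quartile scaling and the fit with a block on replicate number. The third class IIa gene named here, Hdac5, had the most counts of any eraser, at 207 and 216 CPM against 218 and 243 CPM, with a log2 change of 0.12 and an adjusted p of 0.255. The class I pair Hdac1 and Hdac2, catalytic subunits of the NuRD, Sin3 and CoREST complexes, had log2 changes of 0.19 (adjusted p = 0.149) and -0.13 (adjusted p = 0.231). Hdac10, known as a polyamine deacetylase, had a log2 change of -0.07 with an adjusted p of 0.743; it was 0.08 without 7-week replicate 1.

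None of the 7 sirtuins, the NAD-dependent deacylases, was called, beside 8.84% of all genes, and their log2 changes ran from -0.149 to 0.140. Sirt1, the nuclear member most studied in ageing, stood at 32.3 and 35.5 CPM at 7 weeks and 39.6 and 35.3 CPM at 79 weeks. Its groups overlapped, and its log2 change of 0.14 (SE 0.095) had an adjusted p of 0.389. Sirt2, a mainly cytoplasmic tubulin deacetylase abundant in myelin, stood at 177 and 175 CPM against 152 and 166 CPM, a log2 change of -0.15 with an adjusted p of 0.145. The mitochondrial deacetylase Sirt3 had a log2 change of -0.15 (adjusted p = 0.340), and Sirt7, a nucleolar sirtuin, one of 0.13 (adjusted p = 0.326).

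**Figure D3:**
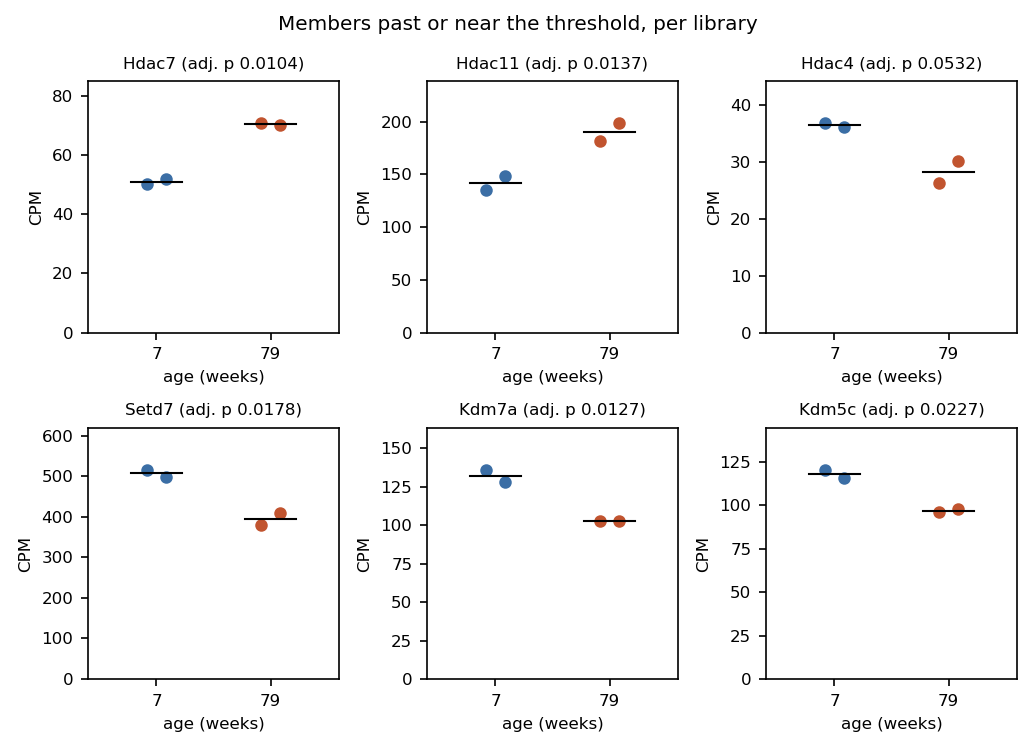
Level in each library of the 5 called genes (Hdac7, Hdac11, Setd7, Kdm7a and Kdm5c) and of Hdac4, as CPM on a linear axis from 0, with points for libraries, a line for the mean of an age and the adjusted p (edgeR) above each panel. In each panel both 79-week points lie on one side of both 7-week points, above for Hdac7 and Hdac11 and below for the other genes.

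The acetyltransferases held no called gene among 10, beside 8.84% of all genes called. Crebbp and Ep300 encode the related coactivators CBP and p300, which acetylate H3K27 at enhancers. Crebbp stood at 162 and 159 CPM at 7 weeks and at 146 and 133 CPM at 79 weeks, without overlap, a log2 change of -0.20 (SE 0.058) with an adjusted p of 0.0714. Ep300 stood at 168 and 175 CPM against 166 and 165 CPM, a log2 change of -0.05 with an adjusted p of 0.540, and 0.001 under scaling by library size alone. The 8 Kat genes, which include the catalytic subunits of the SAGA and ATAC, NuA4 and MOZ-type complexes, had log2 changes between -0.111 and 0.110.

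Setd7 was the one writer that was called. It encodes a methyltransferase that places a single methyl group on H3K4 and also methylates many proteins other than histones. Its level was 515 and 498 CPM at 7 weeks and 379 and 410 CPM at 79 weeks. Both old libraries lay below both young ones, and the fitted level fell by 22.1%, a log2 change of -0.36 (SE 0.063, 95% interval -0.51 to -0.21) with an adjusted p of 0.0178. In edgeR, leaving out 7-week replicate 1 gave an adjusted p of 0.158 and leaving out 7-week replicate 2 one of 0.0849, while DESeq2 called Setd7 with any 1 library left out, at adjusted p between 0.000243 and 0.0299. The granule neuron markers summed to 9786 and 9488 CPM at 7 weeks and 7966 and 7586 CPM at 79 weeks, and their part in the results for Setd7, Kdm7a and Kdm5c was not tested. One of those markers, Gabra6, the cerebellar granule cell GABA-A receptor subunit, had a log2 change of -0.57, and another, Pax6, one of -0.05.

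The other 7 H3K4 writers were not called. Kmt2a, which encodes the methyltransferase MLL1, moved opposite to Setd7: it stood at 397 and 396 CPM at 7 weeks and 462 and 449 CPM at 79 weeks. The groups did not overlap, and the log2 change of 0.20 (SE 0.055) had an adjusted p of 0.0644; with DESeq2 it was 0.0242. Kmt2d, one of the enhancer H3K4 methyltransferases and the writer with the most counts, stood at 533 and 493 CPM against 496 and 481 CPM, with a log2 change of -0.07 and an adjusted p of 0.521.

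The 4 H3K36 writers had lower values at 79 weeks without overlap, which 57.7% of all genes also showed in one direction or the other, and none was called. Nsd1, the methyltransferase whose loss of one copy causes Sotos syndrome in people, stood at 317 and 302 CPM at 7 weeks and 280 and 269 CPM at 79 weeks, a log2 change of -0.17 (SE 0.053) with an adjusted p of 0.0843. Its relatives Nsd2 and Nsd3 had log2 changes of -0.15 (adjusted p = 0.145) and -0.20 (adjusted p = 0.126). Setd2, which places the third methyl group on H3K36, had one of -0.07 (adjusted p = 0.443). The erasers counted under this mark were Kdm2a and Kdm2b, and enzymes counted under another mark are not repeated here. Kdm2a, which binds CpG islands through a CXXC domain, stood at 149 and 147 CPM against 163 and 160 CPM. Its log2 change was 0.13 with an adjusted p of 0.135 (edgeR).

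Polycomb repressive complex 2, which methylates H3K27, had no called core subunit. The catalytic subunit Ezh1, the form common in cells that no longer divide, stood at 111 and 119 CPM at 7 weeks and 128 and 129 CPM at 79 weeks, a log2 change of 0.16 with an adjusted p of 0.117. Ezh2, the form of dividing cells, stood at 13.8 and 11.9 CPM against 17.4 and 14.99 CPM, a log2 change of 0.33 (SE 0.131) with an adjusted p of 0.153. Suz12, the scaffold subunit, had a change of the other sign, from 68.4 and 69.0 CPM to 61.5 and 57.2 CPM, a log2 change of -0.21 with an adjusted p of 0.0969. Eed, the subunit that binds trimethylated H3K27, stood at 22.9 and 21.5 CPM against 22.7 and 19.1 CPM, a log2 change of -0.09 with an adjusted p of 0.651; the change was 0.03 without 79-week replicate 2. The ages overlapped for Eed and not for the other 3 genes, beside 57.7% of all genes without overlap.

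The remaining methyltransferases held no called gene. Dot1l, the H3K79 methyltransferase, had a log2 change of -0.17 (adjusted p = 0.168). Kmt5a, which places the first methyl group on H4K20, had one of -0.18 (adjusted p = 0.257). Ehmt1, which forms the H3K9 dimethyltransferase with Ehmt2, had one of -0.13 (adjusted p = 0.245). Setdb2, with a level of 6.54 to 11.4 CPM, had a log2 change of 0.39 whose SE of 0.204 left the adjusted p at 0.269. Setd3, which methylates a histidine of actin rather than histones, had one of -0.08 (adjusted p = 0.345).

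Of the 18 Kdm genes, 2 were called (11.1%), both lower at 79 weeks, against 8.84% of all genes called and 4.68% called lower. Kdm7a encodes a demethylase of the repressive marks H3K9me2 and H3K27me2 that reads H3K4 methylation through a PHD finger. Its level was 136 and 128 CPM at 7 weeks and 103 and 103 CPM at 79 weeks. The old libraries were nearly equal and lay below both young ones, and the fitted ratio was 0.780, a log2 change of -0.36 (SE 0.055, 95% interval -0.49 to -0.23) with an adjusted p of 0.0127. In edgeR, leaving out 7-week replicate 1 gave an adjusted p of 0.130 and leaving out 7-week replicate 2 one of 0.0599, and DESeq2 did not call Kdm7a with any 1 library left out (0.0779 to 0.365). A noncoding gene that overlaps Kdm7a, 4930599N23Rik, had 15 and 23 counts at 7 weeks and 48 and 32 counts at 79 weeks; whether the counting used strand is not given in the sources used here.

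Kdm5c encodes an X-linked demethylase of H3K4me2 and H3K4me3 whose loss causes intellectual disability in people. Its level was 120 and 116 CPM at 7 weeks and 95.9 and 98.0 CPM at 79 weeks, without overlap. The fitted level fell by 17.8%, a log2 change of -0.28 (SE 0.054, 95% interval -0.41 to -0.16) with an adjusted p of 0.0227. In edgeR, leaving out 7-week replicate 1 gave an adjusted p of 0.184 and leaving out 7-week replicate 2 one of 0.0905, and DESeq2 did not call Kdm5c with any 1 library left out (0.226 to 0.676). Kdm5d, its Y-linked copy, stood at 45.9 and 43.7 CPM at 7 weeks and 40.9 and 40.7 CPM at 79 weeks, a log2 change of -0.13 with an adjusted p of 0.294. The transcripts of this gene pair are alike in sequence, so the split of reads between them is uncertain; reads in Kdm5d were found in every library, matching the male label.

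The other demethylases had smaller or less certain changes. Kdm6a and Kdm6b, the demethylases of H3K27me3, had log2 changes of 0.10 (adjusted p = 0.462) and 0.08 (adjusted p = 0.501), opposite in sign to that of Kdm7a. Among the H3K9 demethylases, Kdm3a had a log2 change of 0.19 (adjusted p = 0.152), Kdm4a one of -0.13 (adjusted p = 0.198) and Kdm4b one of -0.23 (adjusted p = 0.109). Kdm1a, the FAD-dependent H3K4 demethylase LSD1, had one of -0.09 (adjusted p = 0.472). Kdm4d had 3 and 13 counts at 7 weeks and 16 and 21 counts at 79 weeks, and the 95% interval of its log2 change of 1.02 ran from -0.29 to 2.33, so a difference was not detectable at this depth. Kdm8, a JmjC protein now known mainly as an arginine hydroxylase, stood at 9.53 and 8.20 CPM against 12.3 and 10.8 CPM, a log2 change of 0.39 with an adjusted p of 0.156.

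The promoters of the called genes are shown to set their sequences beside the shared and opposed changes. The 250 bases upstream of the RefSeq start (GRCm38.p6) follow for the 4 called genes with a single start, read 5′ to 3′ on the gene's strand with CpG dinucleotides in capitals. They are Hdac11 (chr6:91156565-91156814, plus strand, 17 CpG), Setd7 (chr3:51560824-51561073, minus strand, 17 CpG), Kdm7a (chr6:39206774-39207023, minus strand, 56 CpG) and Kdm5c (chrX:152232977-152233226, plus strand, 10 CpG).
Hdac11: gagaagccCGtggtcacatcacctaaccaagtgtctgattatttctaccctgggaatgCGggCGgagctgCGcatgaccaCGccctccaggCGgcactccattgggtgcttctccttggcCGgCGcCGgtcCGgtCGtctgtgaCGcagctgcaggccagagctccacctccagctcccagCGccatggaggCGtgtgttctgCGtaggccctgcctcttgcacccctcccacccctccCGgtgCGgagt
Setd7: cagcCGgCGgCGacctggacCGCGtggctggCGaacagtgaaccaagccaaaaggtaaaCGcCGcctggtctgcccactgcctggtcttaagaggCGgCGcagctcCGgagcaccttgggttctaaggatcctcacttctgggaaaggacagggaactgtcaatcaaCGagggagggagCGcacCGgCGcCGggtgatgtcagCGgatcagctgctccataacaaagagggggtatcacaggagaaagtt
Kdm7a: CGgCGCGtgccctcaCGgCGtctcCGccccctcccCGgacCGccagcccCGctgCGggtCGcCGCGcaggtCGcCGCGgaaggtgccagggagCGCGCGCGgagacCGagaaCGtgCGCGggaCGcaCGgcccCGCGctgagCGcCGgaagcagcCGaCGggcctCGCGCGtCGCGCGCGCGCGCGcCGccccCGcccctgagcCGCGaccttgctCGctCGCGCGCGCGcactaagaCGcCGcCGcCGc
Kdm5c: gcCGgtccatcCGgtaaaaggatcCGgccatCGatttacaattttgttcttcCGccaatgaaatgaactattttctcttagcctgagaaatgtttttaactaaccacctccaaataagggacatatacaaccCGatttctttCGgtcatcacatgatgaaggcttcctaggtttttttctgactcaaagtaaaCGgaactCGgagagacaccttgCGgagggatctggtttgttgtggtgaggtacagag

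The 3 genes that fell differed widely in CpG content, from 10 CpG in Kdm5c to 56 in Kdm7a, and the risen Hdac11 shared the count of the fallen Setd7. RefSeq promoters were matched for 61 of the 76 members, 83 promoters in all, since 16 members had several starts. Their median was 18 CpG in 250 bases, beside 6 in all 32841 mouse promoters. A GC content of at least 50% with a CpG ratio of observed over expected of at least 0.6 was met by 74.7% of member promoters, 81.4% of the writers' and 67.5% of the erasers', against 31.0% of all promoters. All promoters cover 27018 genes, whether or not they were expressed here, while every member had enough counts to be tested. The sets are thus unlike, and promoters of the tested genes alone were not compared. The GC box GGGCGG, searched on both strands, was present in 61.4% of member promoters and 32.7% of all; it may overlap other CpG-rich sequence. It was present in the printed promoters of Hdac11 and Kdm7a and not in those of Setd7 and Kdm5c. The E-box CACGTG was present in 7.23% of member promoters and 6.02% of all, and the cyclic AMP response element TGACGTCA in 1.2% and 1.55%; neither was found in the 4 printed promoters.

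The partners, readers and cofactor suppliers of these enzymes were read from 8 lists with 225 tested genes, of which 20 were called (8.89%), 13 higher and 7 lower, close to the 8.84% of all genes. The list of Polycomb partners held 6 of these among 30 genes, with 2 higher and 4 lower and a median log2 change of 0.023. The Cbx proteins of Polycomb repressive complex 1, which bind methylated H3K27, had changes of both signs. Cbx7 stood at 107 and 120 CPM at 7 weeks and 179 and 173 CPM at 79 weeks, a log2 change of 0.63 (SE 0.063) with an adjusted p of 0.00402. Cbx6 stood at 342 and 329 CPM against 238 and 237 CPM, a log2 change of -0.50 (SE 0.049) with an adjusted p of 0.00402. Both pairs of old libraries were clear of the young ones.

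Cbx8 also fell. Its level went from 18.6 and 16.3 CPM to 9.89 and 8.94 CPM, a log2 change of -0.89 with an adjusted p of 0.0111. Cbx2 had 6.48 and 6.66 CPM against 5.54 and 5.19 CPM, a log2 change of -0.29 with an adjusted p of 0.345. Phf1, which encodes an accessory subunit of Polycomb repressive complex 2, rose with a log2 change of 0.57 (adjusted p = 0.00734), and Asxl3, which encodes a partner of the H2A deubiquitinase Bap1, fell with one of -0.78 (adjusted p = 0.0473, or 0.0779 with DESeq2). Without 7-week replicate 1 edgeR called none of Cbx7, Cbx6, Cbx8, Phf1 and Asxl3, and likewise no other gene, so that loss was not particular to them. The log2 change was then 0.555 for Cbx7 and -0.474 for Cbx6. Without 7-week replicate 2, a fit with far fewer calls over all genes than the main one, Cbx7 (log2 change 0.713) and Cbx6 (-0.526) were called. DESeq2 called Cbx7, Cbx6 and Phf1 with any 1 library left out. Cbx2, Cbx8, Phf1 and Asxl3 were singled out after their values were seen.

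**Figure D4:**
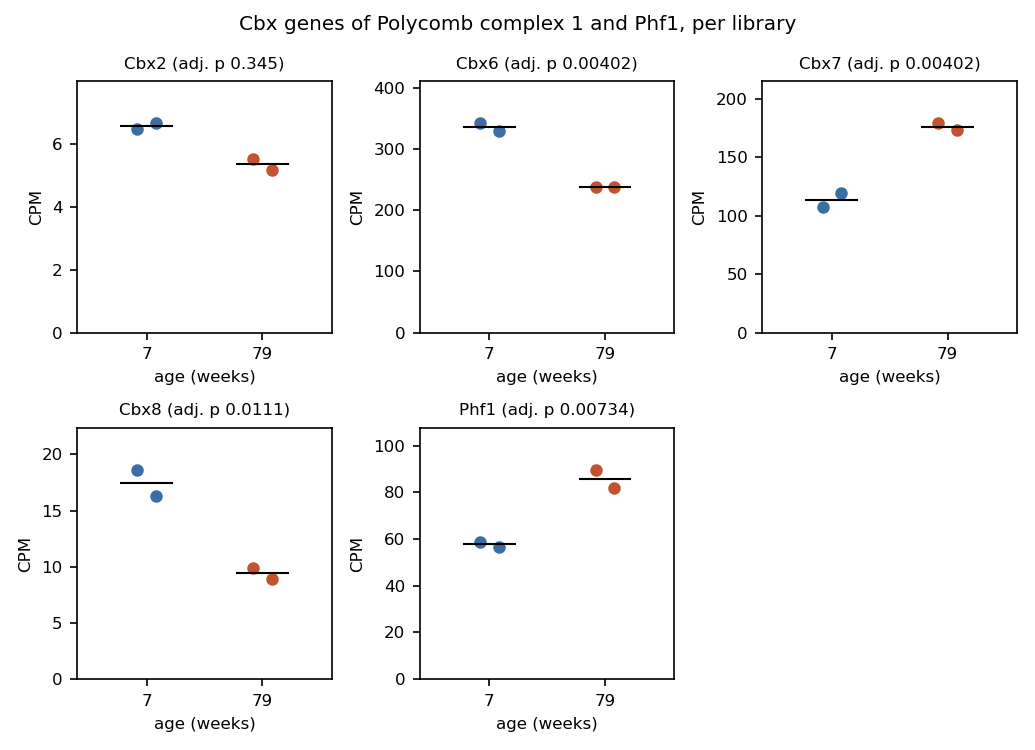
Level of Cbx2, Cbx6, Cbx7, Cbx8 and Phf1 in each library, as CPM on a linear axis from 0, with points for libraries, a line for the mean of an age and the adjusted p (edgeR) above each panel. Cbx7 and Phf1 lie higher at 79 weeks, Cbx6 and Cbx8 lie lower, and Cbx2, which was not called, had 5.19 to 6.66 CPM.

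In the other lists the share of tested genes called ran from 0% (both reader lists) to 17.4% (cofactor genes), against 8.84% of all genes. The COMPASS partners, which assemble with the H3K4 methyltransferases, had 1 of 12 called, Wdr82, lower with a log2 change of -0.35 (adjusted p = 0.0116). The deacetylase corepressors had 3 of 30 called, all higher, among them the NuRD remodeller gene Chd5, at 38.9 and 48.2 CPM against 87.6 and 94.5 CPM (log2 change 1.06, adjusted p = 0.00379), and the CoREST gene Rcor2 (log2 change 1.48, adjusted p = 0.0407; 0.0628 with limma-voom). The acetyltransferase complex subunits had 3 of 36 called, all higher, among them Jade2 (0.51, adjusted p = 0.0116) and Jade1 (0.44, adjusted p = 0.0145), scaffolds of the HBO1 complex. The other histone-modifying enzymes had 3 of 48 called, all higher, among them the SET and MYND domain genes Smyd5 (0.58, adjusted p = 0.0174) and Smyd3 (0.38, adjusted p = 0.0311). None of 25 acetyl readers and none of 22 methyl readers was called. The cofactor genes had 4 of 23 called, 2 in each direction, among them the NAD consumer Parp1, lower at -0.30 (adjusted p = 0.0184), and the glycine methyltransferase Gnmt, higher at 0.99 (adjusted p = 0.0191). Of these 9 genes, edgeR called only Chd5 (log2 change 1.223) without 7-week replicate 2, a fit with far fewer calls over all genes than the main one. Without 7-week replicate 1 it kept none of the 9 calls, and likewise no call over all genes, so that loss was not particular to them. The log2 change of Chd5 was 0.914 in that fit.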

How the data were processed

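Gene counts of 4 cerebellum libraries (poly-A RNA, per the labels' protocols) were used; the other 20 samples of the series are not analysed here. The deposited values are whole read counts per Ensembl gene; cutadapt, STAR, HTSeq and the mm9 build are named in the submitters' processing notes, with no version, and neither the annotation nor the strand setting was found there or in the labels. The 5 HTSeq summary lines were removed. Symbols were matched for 32919 of 37991 identifiers. The members and all lists, writer and eraser roles included, were chosen with earlier results of these data known.

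Counts were fitted with edgeR 4.0.16 in R 4.3.3 (TMM scaling, filterByExpr with a minimum count of 10 and a minimum total of 15, quasi-likelihood F test, Benjamini-Hochberg adjustment over all 15292 genes kept), tested first on simulated data. Intervals came from the same fit, and the biological coefficient of variation was 9.43%. The depth of 16367656 to 22826993 counts limits precision mainly for members with few counts; PCR duplicates were not separable, so intervals rest on the spread between libraries. Genes named are the called members, the member with the smallest p in each role class without a call, the member with the highest CPM on each side and up to 2 called genes of each list; Hdac4, Hdac2, Kmt2a, Nsd2, Nsd3, Setd2, Setdb2, Ezh1, Ezh2, Eed, Ep300, Sirt1, Sirt7, Kdm1a, Kdm3a, Kdm4a, Kdm4d, Kdm5d, Kdm6a, Kdm6b, Cbx2, Cbx8, Phf1 and Asxl3 were added after their values were seen. One gene of a list is not reported here. Alternatives were other scalings and filters, DESeq2 1.42.0, limma-voom (limma 3.58.1), edgeR's robust fit, a block on replicate number and leaving out each library. Members overlapping another RefSeq gene numbered 36 of 76; among the called, Hdac7 shares its span with Slc48a1 (log2 change -0.03, adjusted p = 0.819), and Kdm7a and Setd7 with noncoding genes.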

Additional observations from a re-analysis of the deposited data

How the results depend on the processing

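With 2 libraries per age the calls rest on few values. The count of members whose interval lay within 1.5-fold was 68 to 71 under the other scalings, filters, tests and blocks, and 49 to 69 with a library left out. Leaving out 1 library gave 0 to 2425 called genes, 0 to 7 called members, 0 to 2 called writers and 0 to 6 called erasers over edgeR and DESeq2. The 0 came from edgeR without 7-week replicate 1, where 2610 genes and 10 members had an unadjusted p under 0.05 and DESeq2 called 238 genes and 1 member. Without 7-week replicate 2 edgeR also called 0 members, with 18 at an unadjusted p under 0.05, and DESeq2 called 2; DESeq2 called 430 genes there, 382 without 79-week replicate 1 and 654 without 79-week replicate 2. In fits with 1 library at an age, that library is assumed to vary like the pair at the other age. Across these fits the erasers' median was -0.004 to 0.040, the writers' -0.052 to -0.030 and their difference 0.032 to 0.082; with DESeq2 without 79-week replicate 1 the erasers' median was 0.008 and the difference 0.060. With no low-count filter 3051 of 23285 genes, 11 members and 5 writers were called. With edgeR's robust fit 1746 of 15292 genes, 8 members and 3 writers were called, so the calls over all genes rose too. Called writers numbered 2 under library size scaling, DESeq2 and limma-voom, which called 1385, 1266 and 1213 genes in all. Library size scaling moved the writers' median to 0.013 and the erasers' to 0.087, turned Ep300 to 0.001, and changed the calls over all genes from 637 higher and 715 lower to 901 higher and 484 lower. The difference of medians was 0.054 in the narrower set of writers and erasers. Hdac10 ranged from -0.23 to 0.085 with a library left out in edgeR, and was 0.085 without 7-week replicate 1 (0.083 with DESeq2). Eed ranged from -0.216 to 0.026 in the same way and was 0.026 without 79-week replicate 2 (0.022 with DESeq2). The cause was not tested. With a replicate block in edgeR, 1396 genes and 5 members were called, and of 56 named genes only Asxl3 lost its call (adjusted p = 0.0545). Samples with the same number had a correlation of deviations from the age means of -0.106. With 2 libraries per age the value for crossed numbers is its mirror, 0.106, so it cannot decide whether the numbers stand for pairs. A crossed replicate block, added after seeing the data, called 2014 of 15292 genes, with 8 members and 2 writers among them.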
